A study of Rattus norvegicus with 2 samples.

Results

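The genes described here encode the Wnt ligands, their receptors, the secreted proteins that tune them and the core of the beta-catenin branch inside the cell. Members were taken by gene symbol alone, namely the Wnt, Fzd, Sfrp, Dkk, Axin, Dvl, Rspo and Lgr4 to Lgr6 names with Lrp5, Lrp6, Ctnnb1, Apc, Lef1, Tcf7, Tcf7l1, Tcf7l2, Porcn and Wif1. This rule found 53 of the 16846 gene symbols in the deposited table. Of these, 39 had at least 1 read and 14 had 0 reads in both libraries. Of the 53, 29 reached an average over both libraries of 1 read per 1000000 reads on genes (RPM). Wnt2, Fzd3, Fzd7, Lgr6, Rspo4 and Tcf7 were not among the 53 and so were not measured here. The study asked how knocking down the miR-99/100 and let-7 microRNA families changes gene expression in heart muscle cells of newborn rats. The anti-miR library came from ventricular cultures (postnatal day 0) transduced for 7 days with adeno-associated virus AAV2/9 that carried short hairpins against miR-99/100 and let-7. The control library came from cultures given an empty AAV by one label, or mock-transduced by another. Each group had 1 library of strand-specific poly(A) RNA, so no difference below has a replicate check and no p-value is given for any gene. Rat strain and the number of animals behind each culture are not given in the labels.

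Wnt proteins are secreted, lipid-modified ligands that bind frizzled receptors at the cell surface. With the co-receptors Lrp5 or Lrp6 they block the Axin and Apc complex that otherwise marks beta-catenin for destruction, and beta-catenin then switches on genes with TCF/LEF factors. Other Wnts act without beta-catenin, through Ror and Ryk receptors and the planar polarity proteins. In the heart the pathway is known for its part in early specification of cardiac progenitors and for its return in fibroblasts after injury.

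The labels give the hairpins as directed against let-7a and let-7c and against miR-99/100. Let-7a, let-7c and a pair of members of the miR-99/100 family are shown because they define the treatment, and miR-99a is not shown. Mature rat sequences are from RefSeq (build GRCr8), written 5′ to 3′, with the seed, bases 2 to 8, in capitals.
rno-let-7a-5p: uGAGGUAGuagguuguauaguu
rno-let-7c-5p: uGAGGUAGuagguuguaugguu
rno-miR-99b-5p: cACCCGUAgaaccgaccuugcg
rno-miR-100-5p: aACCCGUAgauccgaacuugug
The let-7 sequences share the seed GAGGUAG, and miR-99b and miR-100 share the seed ACCCGUA. Poly(A) libraries do not measure mature microRNAs, so their loss was not checked here.

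Depth was 14815847 reads on genes in the anti-miR library and 16031780 in the control. A gene with 0 reads may still have had up to 0.202 RPM in the anti-miR library or 0.187 RPM in the control, which is the level of 3 reads. The cultures were labelled cardiomyocytes with a stated purity above 90%, yet 10 fibroblast markers summed to 103900 RPM in the anti-miR library and 102400 RPM in the control. Of 10 listed cardiomyocyte markers, 9 were in the table, with sums of 276 RPM in the anti-miR library and 238 RPM in the control, and Myh6, Tnni3, Ryr2 and Myl3 had 0 reads in the control. Macrophage markers summed to 7347 RPM in the anti-miR library and 6674 RPM in the control, and smooth muscle markers to 2815 and 2906 RPM. Epicardial markers summed to 151 RPM in the anti-miR library and 158 RPM in the control. Endothelial markers summed to 64.3 and 43.0 RPM, and glial and neuronal markers to 36.7 and 29.1 RPM, in the same order. The medians of the log2 ratios, anti-miR over control, were 0.21 for the cardiomyocyte markers above 1 RPM, 0.03 for fibroblasts and -0.05 for macrophages. They were -0.02 for smooth muscle, -0.31 for epicardium, 0.29 for endothelium and 0.83 for glia and neurons. These medians rest on 5 cardiomyocyte, 10 fibroblast, 10 macrophage, 6 smooth muscle, 7 epicardial, 6 endothelial and 4 glial and neuronal markers. At any level, markers higher in the anti-miR library were 8 of 9 for cardiomyocytes and 7 of 10 for fibroblasts. Macrophages had 5 of 10, smooth muscle 4 of 7, epicardium 1 of 7, endothelium 4 of 8 and glia and neurons 5 of 8. Fewer cells of a type and less RNA per cell cannot be told apart in these bulk libraries, and the part of cell makeup in the Wnt gene values was not tested.

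Among the genes found, both cultures expressed the receiving side of the pathway far more than its ligands. The 18 Wnt ligand genes in the table summed to 9.45 RPM in the anti-miR library and 10.7 RPM in the control. The 8 frizzled genes summed to 660 RPM in the anti-miR library and 679 RPM in the control, and the co-receptors Lrp5 and Lrp6 to 263 RPM in the anti-miR library and 258 RPM in the control. A single secreted gene, Dkk3, had 1376 RPM in the anti-miR library and 1272 RPM in the control. These sums leave out Wnt2, Fzd3 and Fzd7, which the rule did not find, and carry no correction for transcript length. Per kilobase of exon the ligands still came to 4.29 RPM in the anti-miR library and 4.09 RPM in the control, and the frizzleds to 193 RPM in the anti-miR library and 198 RPM in the control.

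**Figure D1:**
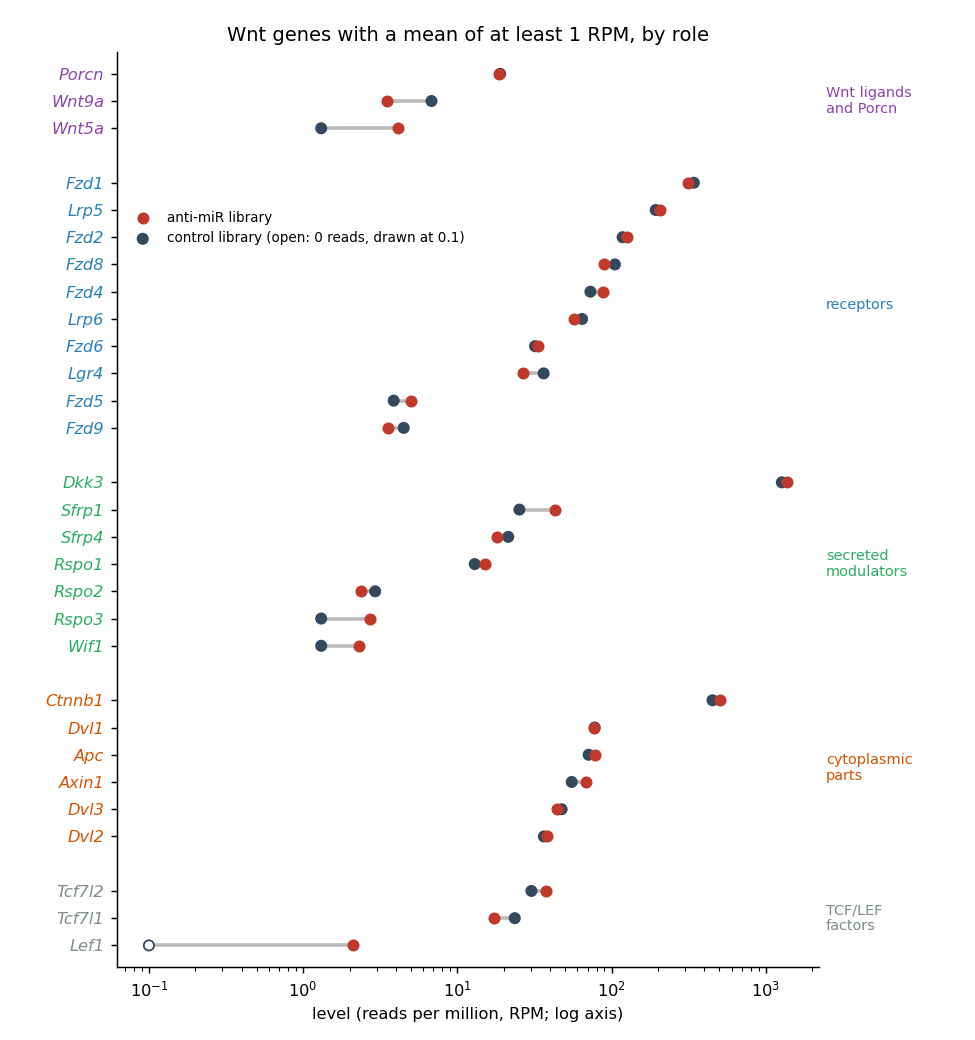
Level of each of the 29 Wnt genes at or above 1 RPM on average in the anti-miR library (red) and the control library (dark), on a log axis in RPM with no length correction, grouped by role. Dkk3, Ctnnb1 and Fzd1 lie at the right, Wnt9a and Wnt5a are at a few RPM, and Lef1, with 0 reads in the control, is drawn there as an open point at 0.1.

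Between the libraries most Wnt genes differed little. The log2 ratio was taken as anti-miR over control after adding 0.1 RPM to each, which shrinks the ratios of scarce transcripts. In the anti-miR library 2 of the 29 members at or above 1 RPM, Lef1 and Wnt5a, were higher by 2-fold or more, and 0 were lower by as much. Over all 10365 genes of that level, 4.85% were higher by 2-fold or more, 3.56% lower and 8.41% either way, so a count of 2 in 29 is near the background. At 1.5-fold, 5 members were higher and 1 was lower, where 10.8% of all genes were higher and 8.56% lower, 19.4% in all. The members' median log2 ratio was 0.09, against 0.03 over all genes of at least 1 RPM. Members were above 1 in ratio in 17 cases and below in 12, and all genes in 5522 and 4843 cases.

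Ratios varied more at low level. Among genes of 1 to 5 RPM, 41.9% were at least 2-fold apart, among those of 5 to 20 RPM 9.44%, and among those of 20 RPM or more 0.478%. The members fell into these bands as 7, 4 and 18 genes, of which 2, 0 and 0 were 2-fold apart. At 1.5-fold, 4 of the 7, 1 of the 4 and 1 of the 18 were apart, beside 63.2%, 30.0% and 5.06% of all genes in the same bands. Many ratios below are therefore set beside a like-level range, which holds the middle 95% of log2 ratios among the 500 genes closest in mean RPM. Members at or above 1 RPM that are given below without this range lay inside it. Exact Clopper-Pearson 95% intervals of the ratio of reads cover counting error only, and 61.7% of all genes of at least 1 RPM had an interval without 1, beside 19 of the 29 members.

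Transcripts of the ligands found were scarce, and those measured did not move in 1 direction. Wnt9a (chromosome 10, 45613668 to 45641488, build rn4) had the most reads of any ligand over both libraries together. It had 52 reads, or 3.51 RPM, in the anti-miR library and 109 reads, or 6.80 RPM, in the control. The read ratio was 0.516 (counting interval 0.364 to 0.725) and the log2 ratio -0.93, inside a like-level range of -1.69 to 1.91. Wnt9a was the lowest ratio among all Wnt members above 1 RPM.

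Wnt5a, a ligand best known for beta-catenin-independent signalling, lay the other way. The gene (chromosome 16, 3782025 to 3799625) had 61 reads, or 4.12 RPM, in the anti-miR library and 21 reads, or 1.31 RPM, in the control. Its read ratio was 3.14 (1.89 to 5.43) and its log2 ratio 1.58, inside a like-level range of -2.33 to 2.84. Per kilobase, Wnt5a had 2.09 RPM in the anti-miR library and 0.665 RPM in the control, and Wnt9a 1.05 RPM in the anti-miR library and 2.04 RPM in the control, so the ligand with the higher level differed between the libraries. Wnt9a made up 37.1% of the summed ligand RPM in the anti-miR library and 63.4% in the control. The summed ligand reads, 140 in the anti-miR library and 172 in the control, gave a ratio of 0.881 (0.700 to 1.11), so a difference in the total was not detectable at this depth.

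Other ligands lay under 1 RPM on average. Wnt11, another ligand of the beta-catenin-independent kind, was just under it at 0.972 RPM, with 2 reads in the anti-miR library and 29 in the control. Its read ratio was 0.0746 (0.00863 to 0.295) and its log2 ratio -3.02. With 0.1 RPM added, no ratio at this mean level could leave its like-level range of -4.45 to 4.45. Wnt4 had 12 reads in the anti-miR library and 13 in the control. Wnt6, Wnt5b and Wnt10b had 6, 5 and 2 reads in the anti-miR library and 0 in the control. The remaining 11 ligand genes had 0 reads in both libraries, which allows at most 0.202 RPM in the anti-miR library and 0.187 RPM in the control for each. They include Wnt1, Wnt3, Wnt3a, Wnt7a and Wnt8a, ligands commonly linked to beta-catenin signalling.

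Several ligand genes lie in pairs on the genome. Wnt3a (chromosome 10, 45552120 to 45591048) lies 22.6 kb from Wnt9a on the opposite strand and had 0 reads in both libraries. Wnt10a lies 6.41 kb from Wnt6 on chromosome 9 and also had 0 reads. Wnt1 and Wnt10b (10.8 kb apart on chromosome 7) and Wnt3 and Wnt9b (24.0 kb apart on chromosome 10) had at most 2 reads in a library. None of the 53 members overlapped another gene of the table on either strand.

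Porcn, the endoplasmic reticulum acyltransferase that adds the lipid which Wnts need for secretion, was measured at a moderate level. It had 18.6 RPM in the anti-miR library and 19.0 RPM in the control. The log2 ratio was -0.03, with a read ratio of 0.982 (0.832 to 1.16).

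Receptors were well covered and close between the libraries. Of the 12 in the table, 10 were at or above 1 RPM, 5 with a ratio above 1 and 5 below, and 0 were 1.5-fold apart. Their log2 ratios ran from -0.45 to 0.36 with a median of -0.02. Fzd1 led per length, with 71.6 RPM per kilobase in the anti-miR library and 77.8 in the control, and Fzd2 came next with 66.3 in the anti-miR library and 62.1 in the control. Fzd1 was thus 1.08 times Fzd2 in the anti-miR library and 1.25 times in the control.

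Fzd1 (chromosome 4, 25994423 to 25998821) had 4665 reads, or 315 RPM, in the anti-miR library and 5480 reads, or 342 RPM, in the control. The log2 ratio of this seven-pass Wnt receptor was -0.12, with a read ratio of 0.921 (0.886 to 0.958) inside a like-level range of -0.35 to 0.33. Fzd2 had 126 RPM in the anti-miR library and 118 RPM in the control, a log2 ratio of 0.09. Fzd8 had 89.5 RPM in the anti-miR library and 105 RPM in the control, a log2 ratio of -0.23. Fzd4, which also serves as the receptor for norrin, had 87.6 RPM in the anti-miR library and 73.0 RPM in the control, a log2 ratio of 0.26 inside -0.48 to 0.48. These 4 receptors lay on both sides of 0, all within their like-level ranges.

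The lower frizzleds varied more but had fewer reads. Fzd6 had 33.5 RPM in the anti-miR library and 31.9 RPM in the control. Fzd5 had 74 reads in the anti-miR library and 62 in the control, with the highest log2 ratio among receptors at 0.36 (counting interval of the ratio 0.909 to 1.84). Fzd9 had 53 reads in the anti-miR library and 72 in the control, at -0.32 (0.548 to 1.15). Fzd10 had 0 reads in the anti-miR library and 7 in the control, so it was at least 2.16-fold lower by the floor of 3 reads. That bound leaves out the counting error of the 7 reads, and the 95% counting interval of the read ratio reached 0.751. For 6 of the frizzled genes (Fzd1, Fzd2, Fzd5, Fzd8, Fzd9 and Fzd10) the exonic length was within 1% of the annotated span, as their coding sequence lies in a single exon.

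Lrp5 and Lrp6 are single-pass co-receptors that take up the Wnt signal together with frizzled. Lrp5 (chromosome 1, 206102750 to 206206350) had 206 RPM in the anti-miR library and 193 RPM in the control, a log2 ratio of 0.09. Lrp6 had 57.3 RPM in the anti-miR library and 64.4 RPM in the control, a log2 ratio of -0.17. Per kilobase, Lrp5 exceeded Lrp6 by 3.60 times in the anti-miR library and 3.01 times in the control. Lgr4, a receptor for R-spondins, had the lowest log2 ratio of the receptors at or above 1 RPM, -0.45. It had 394 reads, or 26.6 RPM, in the anti-miR library and 582 reads, or 36.3 RPM, in the control, a read ratio of 0.733 (0.643 to 0.834) inside a like-level range of -0.67 to 0.68. Its relative Lgr5, a stem cell marker in mouse gut, had 0 reads in both libraries.

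**Figure D2:**
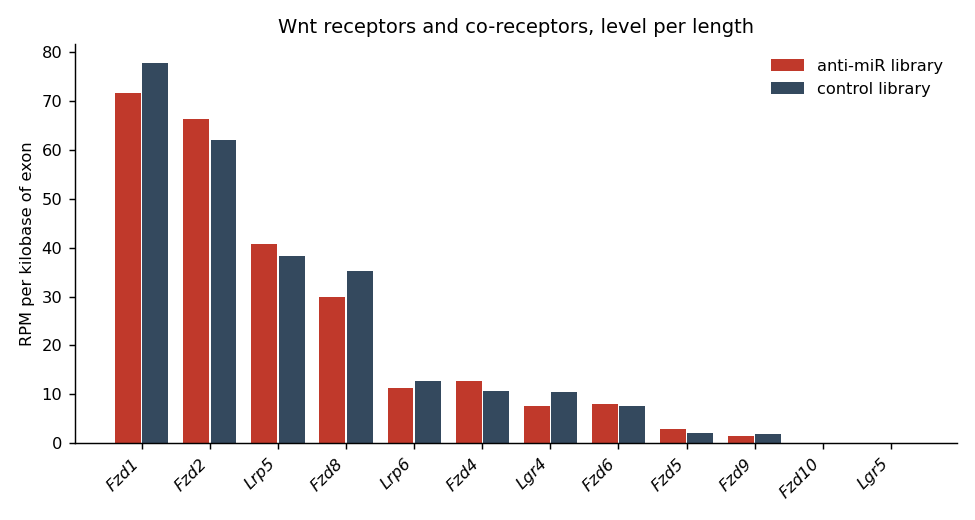
Level per kilobase of exon for the 12 Wnt receptors and co-receptors in the anti-miR library (red, left bar) and the control library (dark, right bar). Fzd1, Fzd2, Lrp5 and Fzd8 lead in both libraries, and Fzd10 and Lgr5 are at or near 0.

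Secreted modulators held the most abundant member and the member that stood out most at good depth. Of the 12 listed there, 7 were at or above 1 RPM, with a median log2 ratio of 0.22; 3 of the 7 were 1.5-fold or more higher in the anti-miR library, beside 10.8% of all genes, and 0 lower, beside 8.56%. Of those 3, Rspo3 and Wif1 had under 3 RPM in both libraries, and 63.2% of all genes of 1 to 5 RPM were 1.5-fold apart either way. Dkk3 (chromosome 1, 169922983 to 169965335), a Dickkopf relative that, unlike Dkk1, is not a clear Lrp antagonist, had 20381 reads in the anti-miR library and 20389 in the control. The log2 ratio was 0.11 and the read ratio 1.08 (1.06 to 1.10), inside a like-level range of -0.39 to 0.30. Per length it ranked 225 among the 16846 genes, with 275 RPM per kilobase in the anti-miR library and 254 in the control. The Lrp antagonists of the family had few reads, Dkk1 with 1 read in the anti-miR library and 2 in the control, Dkk2 with 3 in the anti-miR library and 0 in the control, and Dkk4 with 0 in both.

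Sfrp1, a soluble frizzled-like protein that binds Wnts outside the cell, was higher in the anti-miR library. It (chromosome 16, 73028105 to 73067035) had 636 reads, or 42.9 RPM, in the anti-miR library and 405 reads, or 25.3 RPM, in the control. The read ratio was 1.70 (1.5 to 1.93) and the log2 ratio 0.76, above a like-level range of -0.68 to 0.64. Of the 29 members above 1 RPM, Sfrp1 was the only one outside its like-level range, though Lef1 could not have lain above its own. Since the like-level range leaves out 5% of genes by construction, 1 in 29 is near what it leaves out in the whole table. Sfrp4, from the same family, had 18.2 RPM in the anti-miR library and 21.4 RPM in the control, a log2 ratio of -0.24. Per kilobase, Sfrp1 was 1.22 times Sfrp4 in the anti-miR library and 0.610 times in the control, so the order of the pair differed between the libraries. Sfrp2 had 3 reads in the anti-miR library and 7 in the control, and Sfrp5 had 0 in both.

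R-spondins enhance Wnt signalling by shielding frizzleds from the ubiquitin ligases Rnf43 and Znrf3. Rspo1 was the most abundant of those found, with 15.1 RPM in the anti-miR library and 13.0 RPM in the control. Its log2 ratio was 0.22 (counting interval of the ratio 0.961 to 1.41). Rspo2 had 35 reads in the anti-miR library and 47 in the control, at -0.30, the lowest of the modulators at or above 1 RPM. Rspo3 (chromosome 1, 29072171 to 29156096) had 40 reads in the anti-miR library and 21 in the control, a read ratio of 2.06 (1.19 to 3.68). Its log2 ratio with the added 0.1 RPM was 0.99, the highest of the modulators at or above 1 RPM and just under 2-fold, inside a like-level range of -2.91 to 5.25. Wif1, a secreted inhibitor that binds Wnts, had 34 reads in the anti-miR library and 21 in the control, at 0.76 (0.988 to 3.18). For Rspo1, Rspo2 and Wif1 the counting interval included 1.

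**Figure D3:**
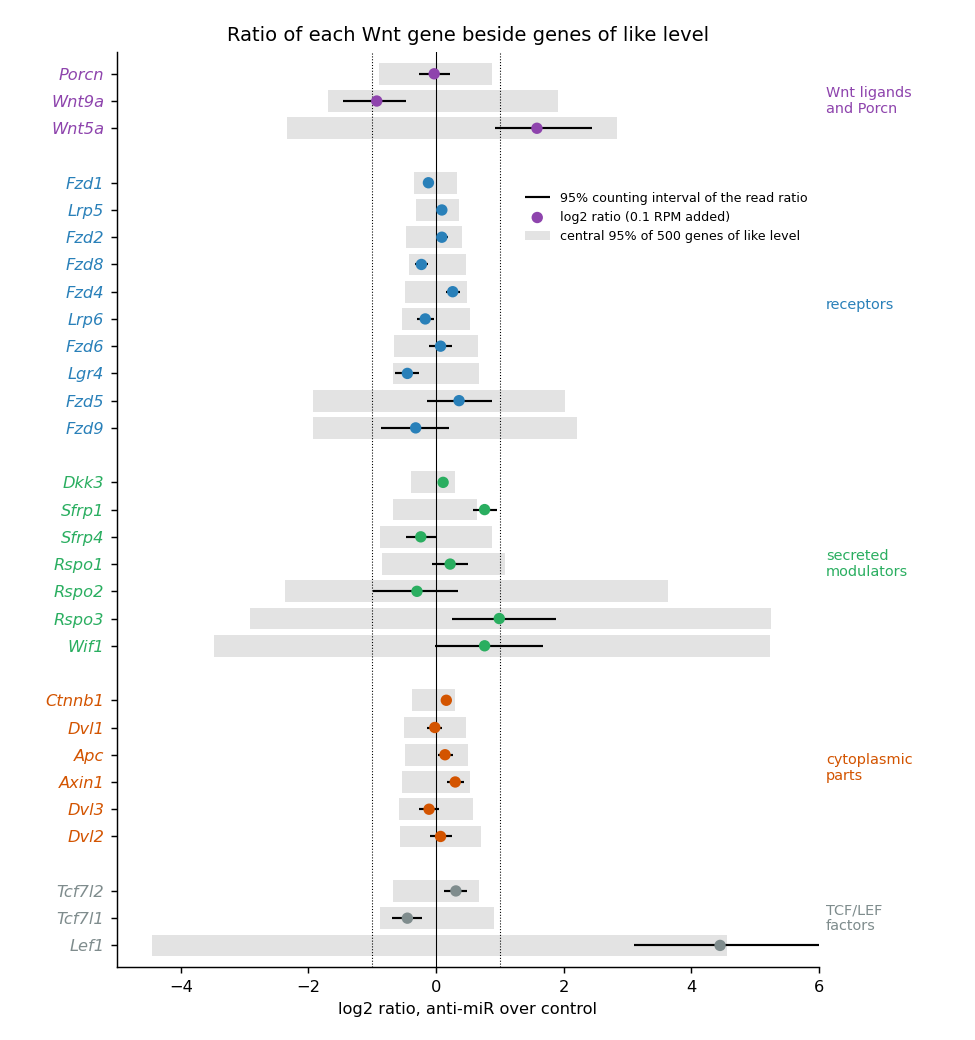
Log2 ratio, anti-miR over control, of each of the 29 members (points), with the 95% counting interval of the read ratio (black lines) and the like-level range of 500 genes (grey bars). Only Sfrp1, at 0.76, lies outside its grey bar, and the interval of Lef1 has no upper end and is drawn to the edge of the axis.

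Core parts inside the cell were abundant and nearly equal in both libraries. Of the 7 listed there, 6 were at or above 1 RPM, with log2 ratios from -0.11 to 0.30, a median of 0.11 and 0 members 1.5-fold apart. Ctnnb1 (chromosome 8, 125978161 to 125987670), encoding beta-catenin, which also links cadherins to the cytoskeleton, had 7470 reads in the anti-miR library and 7246 in the control. These are 504 RPM in the anti-miR library and 452 RPM in the control, with a log2 ratio of 0.16 inside -0.37 to 0.30 and a read ratio of 1.12 (1.08 to 1.15). Apc, a scaffold of the destruction complex, had 78.4 RPM in the anti-miR library and 71.1 RPM in the control, at 0.14.

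Axin1, the limiting scaffold of that complex, had the highest log2 ratio of the core parts at or above 1 RPM. It had 1010 reads, or 68.2 RPM, in the anti-miR library and 885 reads, or 55.2 RPM, in the control. The log2 ratio was 0.30 and the read ratio 1.24 (1.13 to 1.35), inside a like-level range of -0.54 to 0.53. The dishevelled genes Dvl1, Dvl2 and Dvl3 pass the signal from frizzled to Axin. Dvl1 had 76.6 RPM in the anti-miR library and 77.8 RPM in the control, at -0.02. Dvl2 had 38.3 RPM in the anti-miR library and 36.4 RPM in the control. Dvl3, lowest of the core parts at -0.11, had 44.0 RPM in the anti-miR library and 47.5 RPM in the control. The 3 dishevelled genes together had a read ratio of 0.983 (0.929 to 1.04).

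Axin2, an inducible copy of Axin1 that is a standard readout of beta-catenin activity, was barely detected. It had 8 reads, or 0.540 RPM, in the anti-miR library and 4 reads, or 0.250 RPM, in the control, a read ratio of 2.16 (0.580 to 9.82). The difference was not detectable at this depth. Per kilobase, Axin1 was 119 times Axin2 in the anti-miR library and 208 times in the control. The promoters of Axin2 and of Dkk1, another feedback gene of the pathway, are shown because these members had few reads and more than 1 TCF/LEF-like motif before the start site. Both are from RefSeq (GRCr8), 250 bases before to 50 bases after the gene start, on the gene's own strand, with the motif in capitals.
Axin2 promoter, chr10:94398535-94398834, plus strand: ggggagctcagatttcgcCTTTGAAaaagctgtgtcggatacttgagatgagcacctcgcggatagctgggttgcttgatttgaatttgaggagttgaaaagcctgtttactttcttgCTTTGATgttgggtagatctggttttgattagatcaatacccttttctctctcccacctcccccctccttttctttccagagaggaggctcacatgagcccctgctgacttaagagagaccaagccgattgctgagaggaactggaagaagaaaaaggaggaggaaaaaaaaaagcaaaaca
Dkk1 promoter, chr1:237798601-237798900, minus strand: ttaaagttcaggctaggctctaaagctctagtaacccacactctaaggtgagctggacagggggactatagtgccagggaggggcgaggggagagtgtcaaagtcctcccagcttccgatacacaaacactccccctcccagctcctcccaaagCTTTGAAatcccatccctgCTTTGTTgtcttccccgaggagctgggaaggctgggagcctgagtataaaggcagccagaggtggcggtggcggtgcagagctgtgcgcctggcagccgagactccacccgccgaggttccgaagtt
The motif searched was CTTTG followed by AA, AT, TA or TT, on either strand, overlaps allowed. In Axin2 it starts 232 and 132 bases before the start site and in Dkk1 96 and 77 bases before it. Promoters were at hand for 38 of the 53 members, and 5 of these 38, or 13.2%, held at least 1 match, beside 17.1% of 33469 rat promoters of the same length. Only Axin2 and Dkk1 among the 38 held 2 matches, 5.26% beside 2.12% of all promoters. A match is a description of these letters and not evidence of a bound site.

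TCF/LEF factors carry beta-catenin to DNA, and the 3 in the table differed in direction. Tcf7l2 (chromosome 1, 262031823 to 262226709) had 555 reads, or 37.5 RPM, in the anti-miR library and 485 reads, or 30.3 RPM, in the control. Its log2 ratio was 0.31, with a read ratio of 1.24 (1.09 to 1.40) inside -0.68 to 0.67. Tcf7l1, the member best known as a repressor, had 255 reads, or 17.2 RPM, in the anti-miR library and 378 reads, or 23.6 RPM, in the control. The log2 ratio was -0.45, with a read ratio of 0.730 (0.620 to 0.858) inside -0.88 to 0.91. Per kilobase Tcf7l2 was 0.740 times Tcf7l1 in the anti-miR library and 0.437 times in the control. The table gives Tcf7l1 as 2 copies with a length of 1360.5 bases, so its level per kilobase rests on that length.

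Lef1 was read in 1 library only. The gene (chromosome 2, 228550263 to 228673131), itself a common target of beta-catenin signalling, had 31 reads, or 2.09 RPM, in the anti-miR library and 0 reads in the control. By the floor of 3 reads in the control it was at least 11.2-fold higher with the hairpins. Its counting interval began at 8.56. Lef1 passed the level of 1 RPM only through the library in which it was read, so its ratio had to be large. Its log2 ratio of 4.45 depends on the added 0.1 RPM and is the largest possible at its mean level. It therefore could not lie above its like-level range of -4.45 to 4.56. Of 10525 genes with at least 20 reads in either library, 1.13% had 0 reads in the control and at least 20 in the anti-miR library. Most of those genes lay at higher levels than Lef1. Among the 1406 genes of 1 to 5 RPM, the band of Lef1, 5.62% had 0 reads in either the anti-miR library or the control.

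**Figure D4:**
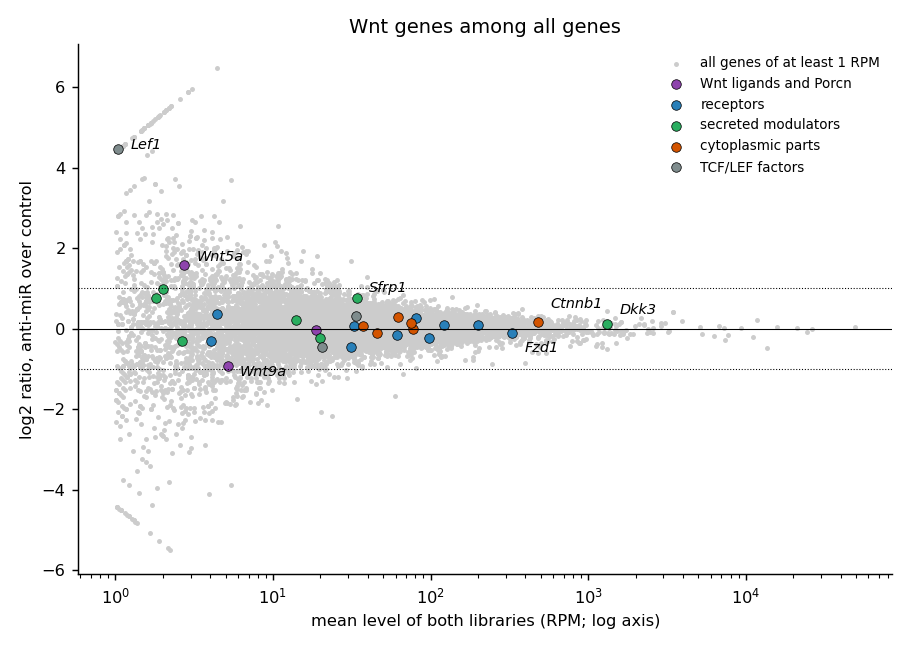
Log2 ratio, anti-miR over control, against mean level (RPM, log axis) for the 10365 genes of at least 1 RPM (grey) and the 29 Wnt members (coloured by role); dotted lines mark 2-fold. Ratios spread widely at low level, where Lef1 and Wnt5a lie, and narrow at high level, where Fzd1, Ctnnb1 and Dkk3 lie close to 0.

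Genes that beta-catenin and TCF are commonly said to induce were mixed. Of 23 such genes outside the symbol rule, 19 were measured here and 10 lay at or above 1 RPM, 6 with a ratio above 1 and 4 below, with a median log2 ratio of 0.06. Of these 10, 2 were higher by 1.5-fold or more, beside 10.8% of all genes, and 0 lower, beside 8.56%. Myc, also a cited let-7 target, was highest of the 10, with 663 reads, or 44.7 RPM, in the anti-miR library and 433 reads, or 27.0 RPM, in the control. Its log2 ratio of 0.73 was above a like-level range of -0.62 to 0.66. Bambi, a decoy receptor of the TGF-beta family, had 18.5 RPM in the anti-miR library and 11.9 RPM in the control, at 0.64. The most abundant, Wisp2, was nearly equal, with 925 RPM in the anti-miR library and 920.3 RPM in the control. Jun, also an immediate early gene, was lowest of the 10 beside Wisp1, both at -0.39, and Jun was just below its like-level range of -0.35 to 0.33. Such ranges leave out 5% of genes by construction. Nkd1 and Nkd2, feedback inhibitors that bind dishevelled, stood at 0.48 and -0.20. Of the defining feedback genes Notum and Sp5 had 0 reads in both libraries, and Rnf43 had 9 reads in the anti-miR library and 0 in the control. Fosl1 had 24 reads in the anti-miR library and 0 in the control, at least 8.66-fold higher by the floor. That bound leaves out the counting error of the 24 reads, and the counting interval of the read ratio began at 6.51. The log2 ratio of Fosl1, 4.10, is the largest possible at its mean level. It therefore could not lie above its like-level range of -4.30 to 4.41.

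Further surface and secreted pathway genes had ratios on both sides of 1. Of the 14 listed there, 9 were at or above 1 RPM, 4 with a ratio above 1 and 5 below, with a median log2 ratio of -0.14 and 0 members 1.5-fold apart. Wls, which carries Wnts to the cell surface, was the most abundant, with 758 RPM in the anti-miR library and 833 RPM in the control, a log2 ratio of -0.14. Frzb, another soluble frizzled-like Wnt binder, had 180.3 RPM in the anti-miR library and 206 RPM in the control, at -0.19. Per kilobase it had 66.0 RPM in the anti-miR library and 75.5 RPM in the control, above each Sfrp gene of the table. Of the 9 at or above 1 RPM, Gpc3, a glypican, was highest at 0.29, and Ndp, encoding norrin, lowest at -0.40 with 15 reads in the anti-miR library and 22 in the control.

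Genes of the beta-catenin-independent branch were also close. Of the 21 listed there, 19 were at or above 1 RPM, 10 with a ratio above 1 and 9 below, with a median of 0.02 and 0 members 1.5-fold apart. The Wnt5a receptors lay on both sides, with Ror1 highest of these 19 at 0.41 and Ror2 lowest at -0.54. Ror2 had 250 reads in the anti-miR library and 395 in the control, a read ratio of 0.685 (0.582 to 0.804) inside a like-level range of -0.82 to 0.91. The GTPase gene Rhoa, the most abundant, stood at 288 RPM in the anti-miR library and 248 RPM in the control.

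Cytoplasmic and nuclear partners outside the symbol rule had 26 genes in the table, all at or above 1 RPM, and a median log2 ratio of -0.07. In this list 0 of the 26 were 1.5-fold higher, beside 10.8% of all genes. Another 4 were lower in the anti-miR library by 1.5-fold or more, beside 8.56% of all genes. Of those, 2 were lower by 2-fold or more, beside 3.56%. Csnk1g1 lay in the band of 1 to 5 RPM and the other three at 5 to 20 RPM, where 63.2% and 30.0% of all genes were 1.5-fold apart either way. Csnk1g1, a casein kinase that acts on Lrp6, had 17 reads in the anti-miR library and 83 in the control, at -2.08, inside -2.18 to 2.30. Nlk, a kinase that restrains TCF factors, had 47 reads in the anti-miR library and 149 in the control, at -1.52, on the lower edge of its like-level range of -1.52 to 1.70. The other two, Tle2 at -0.77 and Pygo1 at -0.68, were inside their ranges, and Pygo1 overlaps other genes of the table on its own strand. Csnk1d, with the most reads of the list, had 168 RPM in the anti-miR library and 210.0 RPM in the control. Its log2 ratio of -0.32 was just below its like-level range of -0.31 to 0.36, which leaves out 5% of genes by construction. Csnk1e was highest at 0.49. The kinase genes Gsk3a and Gsk3b, which mark beta-catenin for destruction, stood at 0.13 and 0.00.

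**Figure D5:**
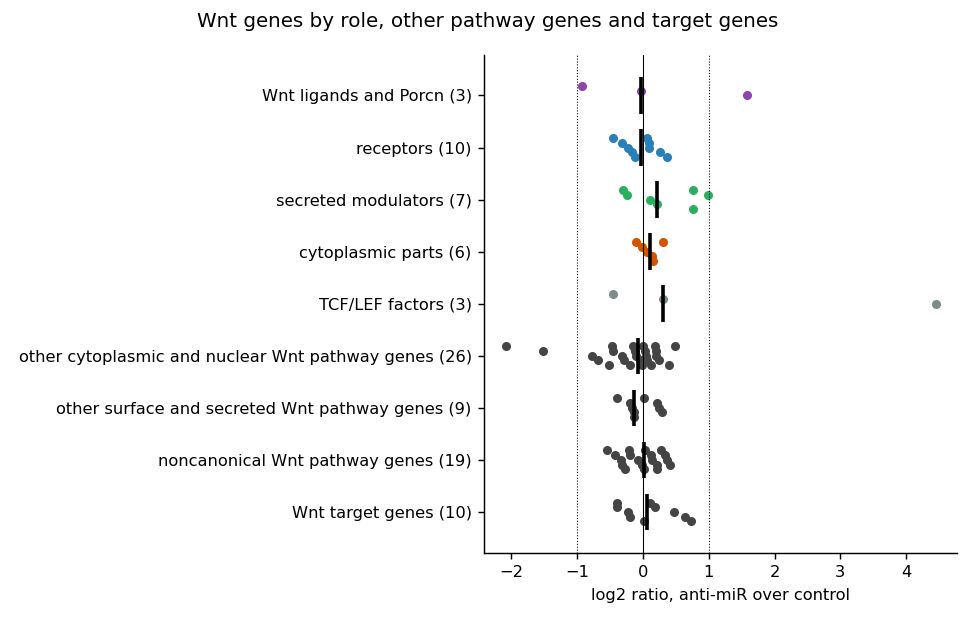
Log2 ratio, anti-miR over control, of each gene of at least 1 RPM, by role for the Wnt members (coloured) and by list for other pathway genes and target genes (dark grey), with the number of genes in brackets and a bar at each median. Medians run from -0.14 to 0.31, and 4 genes lie past the dotted 2-fold lines.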

How the data were processed

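The authors deposited 1 table with a scaled read signal per gene and library. The tool was analyzeRepeats of HOMER, run on rn4 RefSeq exons with the reverse strand setting and 1 transcript kept per gene, per the file headers. CASAVA 1.8.2, STAR 2.2.0c and HOMER are named per the submitters' processing notes. The step that brought both column totals to nearly the same value, and the handling of reads with several matches, are not given in the sources used here; reads shared by close paralogs may be split. Dividing by the value of 1 read (1.04 in the anti-miR and 0.962 in the control column) gave whole reads for 100% of values up to 400 reads, within 0.005 deposited units. Exon lengths are those of the deposited table.

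RPM is the signal as deposited, divided by the sum of its column and multiplied by 1000000. Log2 ratios add 0.1 RPM to each library. Of the table's 16847 rows, the highest row of each symbol was used. The members, lists and tests were chosen with earlier results of these data known. Named genes are the highest, lowest and most abundant of each role, those at least 2-fold apart at 1 RPM or more, and low members with 0 reads in a library; Axin2, Dkk1 and the other low members were named to account for every gene. Of the other lists, Bambi, Nkd1, Nkd2, Notum, Sp5, Rnf43, Fosl1, Frzb, Tle2, Pygo1, Gsk3a and Gsk3b were named after their values were seen. The ratio code was tested on simulated data. Python 3.11.15, scipy 1.17.1 and, for scaling factors, edgeR 4.0.16 were used.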

Additional observations from a re-analysis of the deposited data

How the results depend on the processing

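No paired analysis was possible because each group had 1 library, and for the same reason no replicate could be left out. The count of members higher by 2-fold or more, 2 as reported, was 3 with 0.01 RPM added in place of 0.1 RPM. With no floor on level it was 6, with a floor of 5 or 10 RPM 0, and at 1.5-fold 5. The count lower by as much, 0 as reported, was 2 with no floor and 1 at 1.5-fold. An exact binomial test of whole reads, added after the data were seen, compares the libraries and not the conditions; at an adjusted p under 0.05 it called 13 members higher and 8 lower, 21 of 39 with a read, or 53.8%, beside 6748 of 11630 genes, or 58.0%. Scaling by TMM, median of ratios or upper quartile moved the median of all genes from 0.03 to 0.00. It left the counts of members at 2-fold at 2 higher and 0 lower. The median log2 ratio of the ligands and Porcn, -0.03 as reported, was 0.61 with no floor and -0.48 with a floor of 5 RPM. That of the TCF/LEF factors, 0.31 as reported, was -0.07 with a floor of 5 or 10 RPM, which leaves out Lef1, and that of the other pathway lists together, -0.03, was 0.02 with a floor of 10 RPM. The medians of the receptors, modulators, cytoplasmic parts and target genes kept their sign under every pseudocount, floor and scaling tried. Each of these groups was small and held genes both higher and lower in the anti-miR library. Of 29 single ratios, Lef1 was 1.63 with 1 RPM added and Dkk3 0.09 under upper quartile scaling, and the others stayed within their counting intervals. Depth limits the ligands most, since 16 of 18 lay under 1 RPM.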
